A study of Bos taurus with 6 samples.

Results

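ISG15, MX1, MX2 and RSAD2 are 4 antiviral genes of the interferon response, and their expression was followed in cattle liver with and without rumen-protected niacin. They were taken from the deposited count table by Ensembl identifier: ISG15 is ENSBTAG00000014707, MX1 is ENSBTAG00000030913, MX2 is ENSBTAG00000008471 and RSAD2 is ENSBTAG00000016061. All 4 rows were present among the 23833 identifiers of the table, and all 4 had enough counts to be among the 14839 genes tested. The table holds no symbols, so these follow the Ensembl cattle annotation as given with the choice of rows.

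The biopsies were from the liver of Angus × Simmental cattle. There were 3 libraries with a supplement of niacin protected from the rumen and 3 control libraries without it. Niacin is vitamin B3, a precursor of the coenzyme NAD, and a coating shields it from breakdown by microbes in the rumen. Both groups ate Bermudagrass hay freely and received the same daily supplement of endophyte-free tall fescue seed, molasses and a corn and soybean meal pellet. The sources used here do not give the niacin dose, the length of feeding or the age of the animals. Each library carries a code of its own in the labels, with no statement that each code is one animal, so p-values measure the spread between libraries, which may be technical.

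Interferons are cytokines released when a cell senses viral nucleic acid. Type I interferon binds its receptor on the cell surface, and the signal that follows switches on a large set of target genes. ISG15 is a small protein related to ubiquitin that is attached to other proteins and is also secreted. MX1 and MX2 are GTPases related to dynamin that trap viral components. RSAD2, also called viperin, is a radical SAM enzyme that makes a nucleotide able to end viral RNA chains. Hepatocytes, Kupffer cells and other cells of the liver can all express such genes, so that in a biopsy more cells of one type and more RNA per cell cannot be told apart.

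Library totals ran from 48593701 to 111478194 counts, with niacin libraries 2 and 3 the deepest. On the first 2 principal components of log2 CPM (counts per 1e+06 counts of a library), niacin library 3 lay nearest to the controls (48.8 on the first, against 89.5 and 97.8 for the other niacin libraries and at most -74.9 for controls). Control library 2 stood apart from the other controls on the second (76.7 against -33.9 and -35.6). Markers of hepatocytes, immune cells and other liver cells could not be read, because no identifier of the table could be paired with a symbol through the reference, and neither could the other 52 interferon pathway genes listed for this work.

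Of the 4 genes, ISG15 was higher with niacin, and MX1, MX2 and RSAD2 did not pass the test. One gene of 4 was thus called at an adjusted p under 0.05, against 17.7% of all tested genes called in either direction, 14.2% called higher and 3.46% called lower (edgeR quasi-likelihood test, Benjamini-Hochberg adjustment over all tested genes, n = 3 per group). At an unadjusted p under 0.05 it was again 1 of 4, against 28.9% of tested genes. The median log2 fold, niacin over control, was 0.97 for the 4 genes and 0.07 for all tested genes. The median of the 4 genes lies between the log2 folds of MX1 and MX2, which did not pass the test. With 4 genes, the count and the median describe these genes and not the interferon response.

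The level of ISG15, the ubiquitin-like modifier, was 284 CPM in niacin library 1, 175 CPM in niacin library 2 and 58.8 CPM in niacin library 3. In controls it was 76.3 CPM in library 1, 28.8 CPM in library 2 and 36.2 CPM in library 3. Niacin libraries 1 and 2 lay above every control, while niacin library 3 lay below control library 1, so the groups overlapped. The niacin mean was 173 ± 113 CPM and the control mean 47.1 ± 25.6 CPM (SD, n = 3 each). The log2 fold was 1.87 ± 0.53 (SE), a 3.67-fold rise with a 95% interval from 1.65-fold to 8.15-fold, and the edgeR adjusted p was 0.0279. By p, ISG15 ranked 2080 among the tested genes, of which 2622 were called.

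That call for ISG15 depended on which library was left out. It ended when niacin library 1 was left out (log2 fold 1.31, edgeR adjusted p = 0.109), and likewise without niacin library 2 (1.81, adjusted p = 0.169), control library 2 (1.61, adjusted p = 0.104) or control library 3 (1.71, adjusted p = 0.103). It held without niacin library 3 (2.25, edgeR adjusted p = 0.00566) and without control library 1 (2.44, adjusted p = 0.0117), the libraries by which the groups overlapped. The direction was the same in each of these fits. With upper quartile factors instead of TMM scaling the log2 fold was 1.73 and the edgeR adjusted p was 0.0517, just past the threshold.

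MX1, an Mx GTPase whose transcript is also read in blood cells as a sign of interferon tau in early pregnancy of cows, varied between libraries in both groups. It stood at 203 CPM in niacin library 1, 61.5 CPM in niacin library 2 and 55 CPM in niacin library 3. In controls it stood at 99.3 CPM in library 1, 31.7 CPM in library 2 and 23.3 CPM in library 3. One library in each group was high, and the control one exceeded both of the lower niacin libraries. Means were 106 ± 83.5 CPM with niacin and 51.4 ± 41.7 CPM in controls (SD, n = 3 each). The log2 fold of 1.05 ± 0.68 (SE) did not pass the test (edgeR adjusted p = 0.364), and the 95% interval of the fold ran from 0.708-fold to 6.05-fold, which includes no change as well as a rise larger than the estimate for ISG15.

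The size of the MX1 difference changed widely when 1 library of either group was left out. Without niacin library 1 its log2 fold was 0.18 (edgeR adjusted p = 0.898), and without control library 1 it was 1.99 (adjusted p = 0.0318), the one fit of those run in which MX1 was called. Without control library 2 or 3 it was 0.79 or 0.69.

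**Figure D1:**
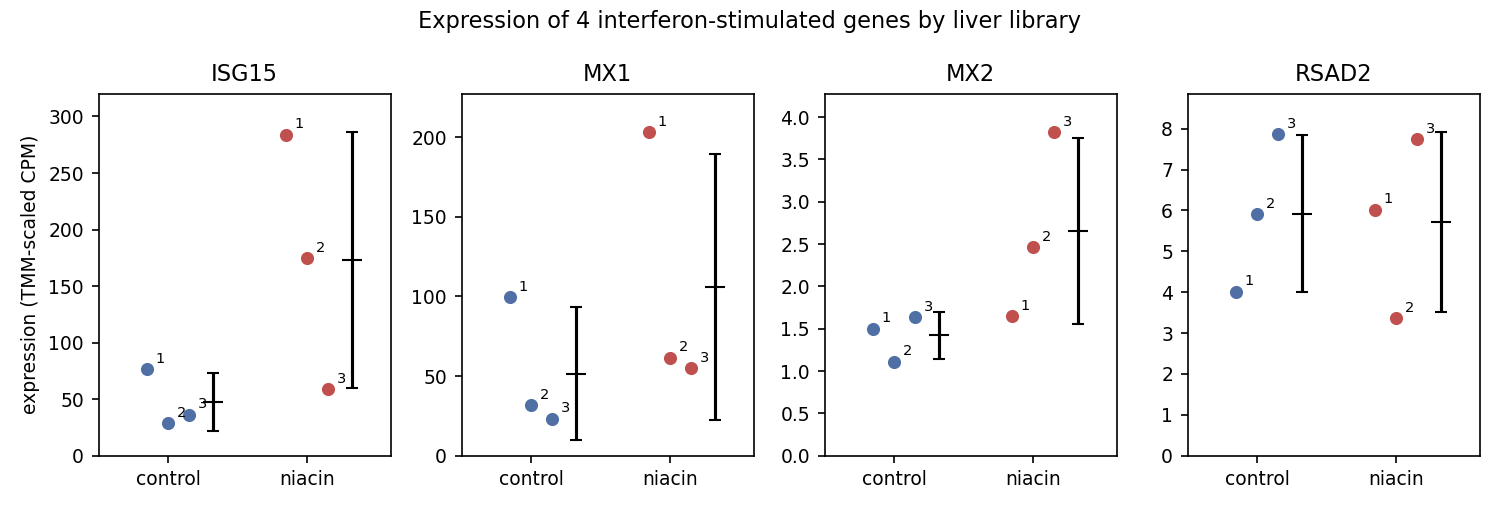
Expression of each gene in TMM-scaled CPM (vertical axes, each from 0) for the 3 control and 3 niacin libraries, numbered by library, with the group mean and SD as the bar beside the points. ISG15 and MX1 are highest in niacin library 1 (284 and 203 CPM) and, among controls, in control library 1 (76.3 and 99.3 CPM), while MX2 is highest in niacin library 3 and RSAD2 overlaps throughout.

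MX2, the other Mx GTPase, had few counts, between 52 counts in control library 2 and 356 counts in niacin library 3. It was at 1.65 CPM in niacin library 1, 2.46 CPM in niacin library 2 and 3.82 CPM in niacin library 3. Controls were at 1.5 CPM in library 1, 1.11 CPM in library 2 and 1.64 CPM in library 3. Every niacin library was above every control, but niacin library 1 exceeded control library 3 by a margin far inside the counting error. Their counts of 91 and 90 have exact Poisson 95% intervals of 73.3 to 112 and 72.4 to 111. These intervals cover counting error only, take counts as independent and may be too narrow. Such a separation was common in this comparison: all niacin libraries were above all controls for 22% of the tested genes, and the groups were separate in one or the other direction for 34.4%. The means of 2.65 ± 1.1 CPM with niacin and 1.42 ± 0.274 CPM in controls (SD, n = 3 each) gave a log2 fold of 0.9 ± 0.49 (SE), which did not pass (edgeR adjusted p = 0.243). Its 95% interval ran from 0.912-fold to 3.82-fold. With upper quartile factors or library totals alone, niacin library 1 fell below control library 3 and the groups overlapped. Without niacin library 3, the highest, the log2 fold was 0.5 (edgeR adjusted p = 0.497).

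In the RefSeq table of the cattle assembly ARS-UCD2.0, MX2 and MX1 are neighbours on one chromosome with 0 listed genes between them, and MX1 has 5 transcript models there against 1 each for MX2, ISG15 and RSAD2. The Mx genes are related in sequence, and the sources used here do not say how reads matching both were counted, so the split of reads between them is uncertain. Their highest libraries were not the same, and whether shared reads affected this was not tested. MX1 peaked in niacin library 1, in which MX2 was at its lowest of the niacin group.

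RSAD2, the viperin gene, had nearly equal means in the 2 groups. It was at 6.02 CPM in niacin library 1, 3.37 CPM in niacin library 2 and 7.74 CPM in niacin library 3. Controls were at 4.01 CPM in library 1, 5.9 CPM in library 2 and 7.86 CPM in library 3. The highest and the second highest values, from control library 3 and niacin library 3, differed little, and the lowest was a niacin library. Means were 5.71 ± 2.2 CPM with niacin and 5.92 ± 1.92 CPM in controls (SD, n = 3 each). The log2 fold was -0.05 ± 0.42 (SE), at an edgeR adjusted p of 0.957, and its sign turned without niacin library 2 (0.1) and without control library 3 (0.2). The 95% interval ran from 0.519-fold to 1.79-fold.

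**Figure D2:**
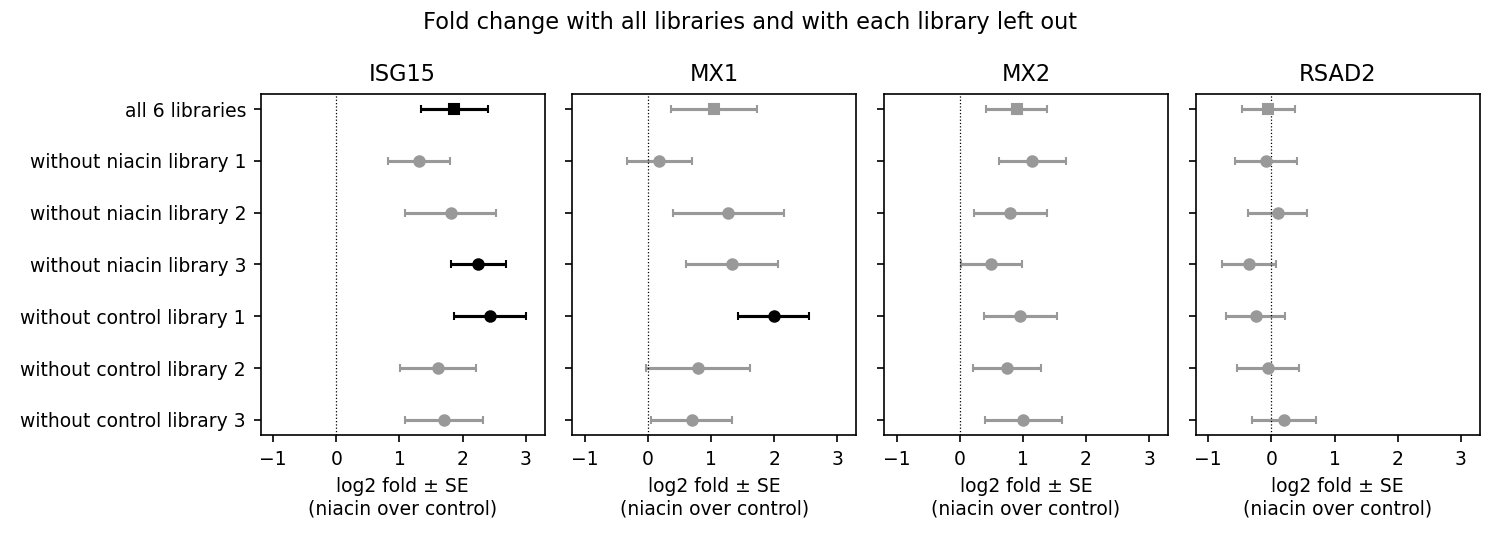
The log2 fold of niacin over control with its SE (horizontal axis) for each gene, from all 6 libraries (square) and with each library left out in turn (circles), black where the edgeR adjusted p was under 0.05 and grey where it was not. ISG15 lies between 1.31 and 2.44 and is black in 3 of the 7 fits, MX1 spans 0.18 to 1.99, MX2 stays between 0.5 and 1.15, and RSAD2 lies on both sides of 0.

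The 6 libraries were not ordered alike by the 4 genes. ISG15 was highest in niacin library 1, followed by niacin library 2, control library 1, niacin library 3, control library 3 and control library 2. MX1 shared its top library and had control library 1 second, and both genes had control libraries 2 and 3 at the bottom. MX2 ran the other way within the niacin group, from library 3 down to library 1, whereas ISG15 and MX1 ran from library 1 down to library 3. For RSAD2, control library 3 came first and niacin library 2 last. The orders of ISG15 and MX1 were the same with TMM, RLE factors, upper quartile factors and library totals alone. For MX2, niacin library 1 fell below control library 3 with upper quartile factors and with library totals, and for RSAD2, control library 2 moved above niacin library 1 with upper quartile factors. With RLE factors both kept the order that TMM gave. The highest library exceeded the lowest 9.88-fold for ISG15, 8.72-fold for MX1, 3.44-fold for MX2 and 2.33-fold for RSAD2.

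Ratios of counts between the genes within a library do not depend on how libraries are scaled, and they show how far the genes kept step. The log2 ratio of ISG15 to MX1 counts was 0.49, 1.51 and 0.09 in niacin libraries 1, 2 and 3, and -0.38, -0.14 and 0.64 in control libraries 1, 2 and 3. That ratio moved over 3.7-fold across the 6 libraries, less than either gene alone. The log2 ratio of ISG15 to RSAD2 was 5.56, 5.7 and 2.92 in niacin libraries 1, 2 and 3, and 4.25, 2.29 and 2.2 in control libraries 1, 2 and 3, an 11.3-fold range. Niacin libraries 1 and 2 were above every control in this ratio, and niacin library 3 was below control library 1.

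The log2 ratio of MX1 to MX2 counts was 6.94, 4.64 and 3.85 in niacin libraries 1, 2 and 3, and 6.05, 4.83 and 3.83 in control libraries 1, 2 and 3, an 8.65-fold range with nearly the same mean in both groups (niacin 5.14 ± 1.6, control 4.9 ± 1.11, SD, n = 3 each). Library 1 of each group was thus the one in which MX1 was high relative to its neighbour. Over the 6 pairs of genes the difference between groups in mean log2 ratio, niacin minus control, ran from 0.24 for MX1 to MX2 up to 1.82 for ISG15 to RSAD2. None of the 6 passed a two-sided exact permutation test, with raw p from 0.2 to 0.9 and Benjamini-Hochberg adjusted p from 0.6 to 0.9. With 3 libraries against 3 the smallest p this test allows is 0.1, so it could not have passed 0.05. Whether the fold of ISG15 differs from those of the other genes was thus not settled by these libraries.

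**Figure D3:**
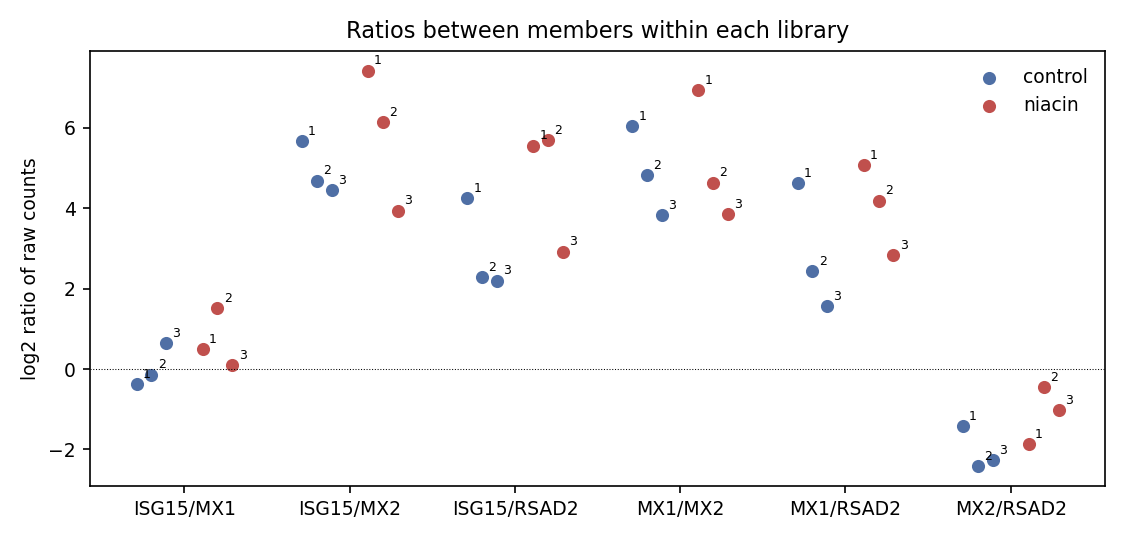
The log2 ratio of raw counts between each pair of the 4 genes (vertical axis) in each library, numbered, with controls in blue and niacin in red. The ratios of ISG15 or MX1 to MX2 or RSAD2 spread over 8.65-fold to 11.4-fold across libraries, against 3.7-fold for ISG15 to MX1 and 3.88-fold for MX2 to RSAD2, and the groups overlap in all 6 pairs.

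The spread between libraries of one group was unusual for ISG15 and MX1 and ordinary for MX2 and RSAD2. The within-group SD of log2 CPM was 0.97 for ISG15, larger than for 98.5% of the 1084 tested genes with a mean between 100 and 1000 CPM, where the median was 0.4. For MX1 it was 1.07, larger than for 98.7% of the 5266 genes between 10 and 100 CPM, where the median was also 0.4. The wide spread of MX1 was found in both groups (SD 1.04 with niacin and 1.1 in controls), and that of ISG15 was 1.16 with niacin and 0.73 in controls. MX2 and RSAD2 had SDs of 0.47 and 0.55, at the percentiles 39.4 and 53.7 of the 5303 genes between 1 and 10 CPM (median 0.53). With counts taken as independent, counting error was small beside this for ISG15 and MX1. Their smallest counts, 1346 and 1276, have a counting SD of 2.73% and 2.8%. For MX2 the counting SD reached 13.9% in control library 2.

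**Figure D4:**
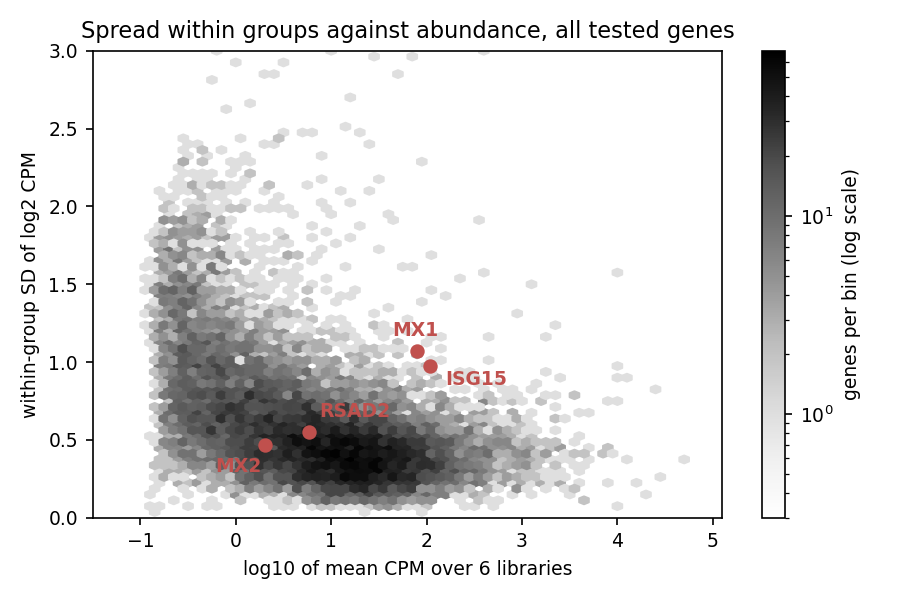
Within-group SD of log2 CPM (vertical axis) against the log10 of mean CPM (horizontal axis) for all tested genes, shaded by the number of genes per bin on a log scale, with the 4 genes in red. MX1 (1.07) and ISG15 (0.97) lie above most genes of their abundance, and MX2 (0.47) and RSAD2 (0.55) lie within the bulk. The axis ends at an SD of 3, above which 19 genes lie.

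The middle part of each library's code ends in M or F, a letter that has no stated meaning and splits each group 2 to 1. Among libraries with the letter M, the mean log2 CPM of niacin minus control was 1.3 for ISG15, 1.14 for MX1, 0.67 for MX2 and 0.28 for RSAD2 (2 libraries each). For the letter F, with 1 library in each group and hence no replicate check, it was 2.6 for ISG15, 0.96 for MX1, 1.13 for MX2 and -0.8 for RSAD2. With so few libraries, the values for the letters are given side by side and were not compared. With the letter as a term in the fit, ISG15 was called (log2 fold 1.94, edgeR adjusted p = 0.0401) and the others were not.

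The mean profile of the 4 genes, with each gene's log2 CPM centred over the 6 libraries, was 0.88, 0.21 and 0.23 in niacin libraries 1, 2 and 3 and -0.03, -0.76 and -0.55 in control libraries 1, 2 and 3. No member lay close to it, with root mean square differences of 0.71 for ISG15, 0.6 for MX1, 0.57 for MX2 and 0.77 for RSAD2. The median was 0.81 for all tested genes. Each member is part of the mean profile, which lowers its own difference, so the members and that median are not a like comparison. The genes nearest to the mean profile were ENSBTAG00000008808, at a root mean square difference of 0.08, and ENSBTAG00000008077, at 0.09. Their log2 folds were 0.82 ± 0.45 and 0.9 ± 0.32 (SE), sizes that follow from choosing genes by likeness to this profile. Neither was called (edgeR adjusted p of 0.249 and 0.0648), and neither identifier is paired with a symbol here.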

How the data were processed

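The authors deposited raw counts, as whole numbers for each Ensembl gene in each of 6 liver libraries. Per the labels' protocols, poly(A) RNA from 1500 ng of total RNA went into directional libraries that were read from both ends over 150 bp. The submitters' processing notes name TopHat2 2.1.1, HTSeq, Trimmomatic 0.36, Cufflinks 2.2.1, DESeq2, FastQC 11.5 and bedtools 2.30.0 without their roles. The sources used here do not give the genome build, annotation release or strand setting.

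Groups came from the agent label, and replicate numbers only name libraries. Libraries were checked for duplicates, and pairs differed by a mean chi-square of at least 266 per gene. Genes were filtered with filterByExpr (minimum count 10), scaled with TMM, and tested between groups by the quasi-likelihood F test of edgeR 4.0.16 in R 4.3.3 with robust dispersion, with Benjamini-Hochberg adjustment over 14839 genes and a threshold of 0.05. The test was checked on simulated counts. The standard error is the log2 fold divided by the square root of F, and intervals use the t distribution of the fit. CPM are TMM-scaled, and log2 CPM has a prior count of 2. Reads carry no molecular identifiers, so intervals on counts cover counting error only. These intervals and the counting SDs also take counts as independent, and are too narrow if they are not. Of counts from 1 to 50, between 54.8% (control library 3) and 59.7% (control library 2) were even. The cause of this share was not tested. Alternatives were DESeq2 1.42.0, limma-voom (limma 3.58.1), other scalings and filters, non-robust dispersion, the code letter as a term and each library left out. The 4 genes were named by rule, with the 2 genes of nearest mean profile.

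The members and lists were chosen with earlier results of these data known. Of the 37063 genes in the RefSeq table of ARS-UCD2.0, 0 had an Ensembl identifier, so the interferon and cell marker lists could not be applied, and no sequences are shown.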

Additional observations from a re-analysis of the deposited data

How the results depend on the processing

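Each log2 fold was recomputed under 16 alternatives. ISG15 stayed between 1.31 and 2.44 and was called in 11 of them (adjusted p from 0.00387 to 0.169). MX2 stayed between 0.39 and 1.15 and was called in none (adjusted p from 0.203 to 0.575), MX1 was called in 1, and RSAD2 in none. Upper quartile factors gave ISG15 1.73 and left 0 of the 4 genes called, by edgeR with an adjusted p of 0.0517 for ISG15; DESeq2 and limma-voom each called 1. With each library left out, ISG15 ranged from 1.31 to 2.44, MX1 from 0.18 to 1.99 and RSAD2 from -0.36 to 0.2, with RSAD2 at 0.1 without niacin library 2 and 0.2 without control library 3, the fits in which its sign changed. The number of the 4 genes called then ranged from 0 to 2, at 2 without control library 1. In these fits an arm of 2 libraries shares the spread of the other arm.

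Over all tested genes, those called higher stayed within 1.5 times of 2109. Those called lower, 513 as reported, were 943 with DESeq2, 820 with upper quartile factors, and from 171 to 1157 with each library left out. Leaving out niacin library 3 and control library 2 together, chosen after seeing the data, gave 818 lower genes, a log2 fold of 2.03 for ISG15 (edgeR adjusted p = 0.0161) and 0.39 for MX2. The cause of these shifts was not tested. Upper quartile factors placed the median log2 fold over tested genes at -0.07, against 0.07 with TMM. No paired analysis was possible because replicate numbers here follow accession order and pair nothing. Depth limits MX2 most, with as few as 52 counts in a library, and 3 libraries per group limit all 4 genes.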
